A study of Mus musculus with 1094 samples.

Results

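Axon guidance ligands and their receptors were followed through the formation of the mouse dorsal cerebral cortex, from neural stem cells through basal progenitors to neurons just born. The genes were taken by symbol: semaphorins of classes 3 to 7, plexins, neuropilins, Eph receptors, ephrins, Slits and Robos. The rule found 60 of the 23078 genes in the files, namely 20 semaphorins, 9 plexins, 2 neuropilins, 9 EphA and 5 EphB receptors, 5 ephrin-A and 3 ephrin-B genes, 3 Slits and 4 Robos.

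Single cells were sorted from micro-dissected dorsal cortex of C57Bl/6 mice, labelled female and wild-type, that carried a fluorescent reporter, and each cell was sequenced on its own after capture on a microfluidic chip. Neural stem cells (NSC, 538 cells) came from Hes5::GFP animals at E10.5, E11.5, E13.5, E15.5, E17.5, E18.5, P0 and P1. Basal progenitors (BP, 344 cells; E12.5, E14.5, E16.5, E18.5 and P0) and newborn neurons (NBN, 212 cells; E16.5, E18.5, P1 and P3) both came from Tbr2::GFP animals. P0, P1 and P3 cells are labelled as 1, 2 and 4 days old. Hes5 is a Notch target that marks cortical stem cells, and Tbr2 is the protein of Eomes, a factor of the basal progenitor, so each gate follows the activity of a reporter and not of the guidance genes. No animal, litter, pool or chip is named in the labels. The unit compared is therefore the library, all cells of 1 population at 1 stage, with 8 NSC, 5 BP and 4 NBN libraries. P-values measure the spread between these libraries, and BP and NBN libraries of the same stage may come from the same animals.

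Guidance molecules are secreted or membrane-bound cues, and growing axons and migrating cells read them through receptors that reshape the cytoskeleton. Class 3 semaphorins are secreted and bind neuropilins, which signal through A-type plexins; ephrins and Eph receptors are both anchored in membranes and signal at cell contacts; Slits are secreted and repel through Robo receptors. In the cortex the same families also act on radial glia, on the radial migration of newborn neurons and on the paths of callosal and subcortical axons.

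Levels are the authors' TPM, a length-corrected share of a cell's transcripts, averaged over the cells of a library. Of 1094 cells, 19 with under 500 detected genes were left out, and 39 to 88 cells per library remained, with a median of 3189 to 5764 genes at 1 TPM or more. TPM keep no read depth, so the precision of a single value is unknown. Markers set several libraries apart from their labels. Cells whose summed newborn neuron markers exceeded their radial glia markers (neuron-profile cells) were 90.7% of NSC E15.5 cells and 77.6% of NSC E11.5 cells, against 4.55% at NSC E10.5 and 12.8% at NSC P1. They were at least 96.3% of each BP library and at least 89.7% of the NBN libraries other than P3. In NBN P3 they were 12 of 40 cells. There 34 of 40 cells carried 3 or more markers of another cell type, 16 of microglia and 13 of meninges; all 6 microglial markers were at 1 TPM or more, with a summed level of 6946 TPM against 7.56 to 32.7 TPM in the other NBN and BP libraries, and Tbr1 was under 0.05 TPM. In NSC E11.5, 35 of 58 cells carried markers of another type, 32 of them erythroid. Some results that rest on these libraries are also given without them or without their neuron-profile cells.

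Most of the family was present at low or moderate levels and a few members dominated. Efna5 had the highest mean over the 17 libraries, 137 TPM, followed by Efnb2 at 132 TPM, Nrp1 at 112 TPM and Plxna2 at 104 TPM. A mean of 1 TPM or more in at least 4 libraries was required for testing, and 9 members missed it: Epha1, Epha2, Epha6, Epha8, Plxnb3, Sema3b, Sema3g, Robo3 and Robo4. The other 51 were tested among 14093 genes with limma on log2(mean TPM + 1), 2-sided, and called where the Benjamini-Hochberg adjusted p was under 0.05. The heat map of the members named here shows these levels by library.

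**Figure D1:**
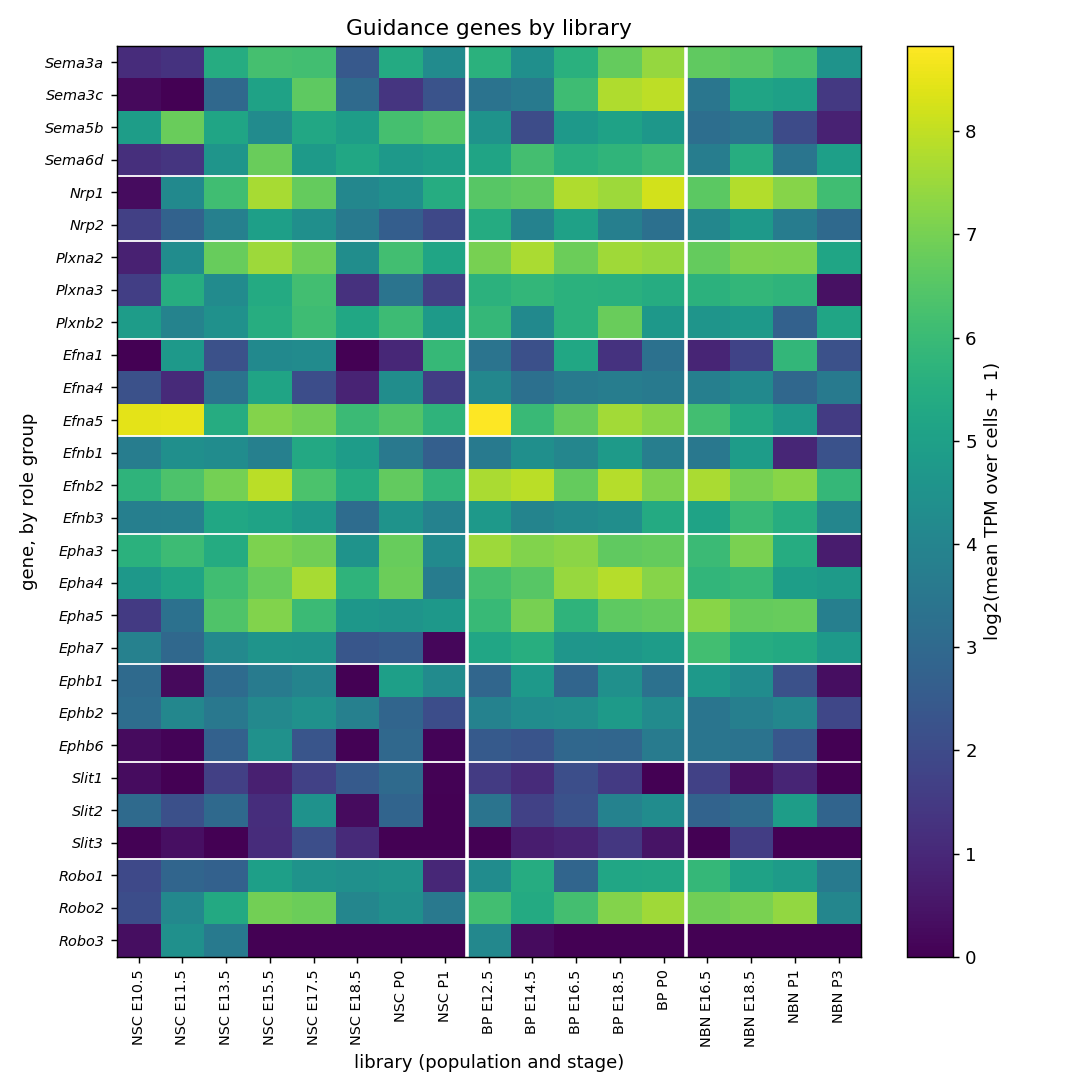
Library levels of 28 guidance genes, as log2(mean TPM over cells + 1) in colour, with 17 libraries across (8 NSC, 5 BP, 4 NBN, each ordered by age) and genes down by role group. Efna5, Efnb2, Nrp1 and Plxna2 have the highest mean TPM over the libraries, Robo3 is bright in 3 early libraries, and NBN P3 is dark for Plxna3 and Epha3.

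Newborn neurons against stem cells. Epha7 was higher and Sema5b lower in NBN than in NSC libraries, and these were 2 of the 51 tested members called, with 1.74% of all genes called in this comparison. Epha7 encodes a receptor for A-type ephrins, and Sema5b a transmembrane semaphorin that repels axons. Over all tested members the median estimate was 0.69 on the log2 scale, against -0.11 over all genes, and 30 of 51 were positive where 44.3% of all genes were. At an unadjusted p under 0.05, 6 members were higher and 3 lower, where 5.37% of all genes were higher and 10.6% lower. The 2 genes, and Sema3c, the semaphorin that differed most among BP libraries in TPM, are shown with the 250 bases before their RefSeq start sites (build GRCm38.p6, all on the + strand). Capitals mark TGGGAA, the core of the site read by the Notch partner Rbpj, and CAGATG, an E-box of the kind bound by proneural factors, each searched on both strands. In the GENCODE annotation of GRCm38, Epha7 starts right after its window, Sema5b starts inside its window (at 35541145) and Sema3c starts before it (at 17574281), so the last 2 sequences lie mostly or wholly inside the annotated gene.
Epha7, chr4:28812881-28813130: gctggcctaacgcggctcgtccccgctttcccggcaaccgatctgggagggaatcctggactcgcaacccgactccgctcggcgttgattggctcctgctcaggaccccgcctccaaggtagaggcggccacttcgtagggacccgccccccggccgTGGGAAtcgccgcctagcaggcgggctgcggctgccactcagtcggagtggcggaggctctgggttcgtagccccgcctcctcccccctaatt
Sema5b, chr16:35541112-35541361: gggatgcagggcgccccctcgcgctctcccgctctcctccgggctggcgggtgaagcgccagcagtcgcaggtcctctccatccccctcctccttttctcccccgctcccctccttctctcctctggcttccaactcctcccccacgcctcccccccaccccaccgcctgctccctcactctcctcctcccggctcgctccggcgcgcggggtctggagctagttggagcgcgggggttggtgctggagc
Sema3c, chr5:17574566-17574815: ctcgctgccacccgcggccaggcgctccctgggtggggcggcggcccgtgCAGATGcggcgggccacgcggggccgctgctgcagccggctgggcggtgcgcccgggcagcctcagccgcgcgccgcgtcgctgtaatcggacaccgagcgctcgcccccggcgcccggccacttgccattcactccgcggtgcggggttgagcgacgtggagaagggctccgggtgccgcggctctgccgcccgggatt
Epha7 held 1 TGGGAA and no CAGATG, Sema3c 1 CAGATG and no TGGGAA, and Sema5b neither. Among all 32851 promoters of the table, 21.6% held TGGGAA and 14.4% CAGATG in this window. Of the 69 promoters listed for 53 matched members, 12 (17.4%) held TGGGAA and 5 (7.25%) CAGATG. These promoters were GC-rich, with a median GC content of 64.0% and 15 CpG dinucleotides, against 52.4% and 6 over the table.

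Epha7 lies on chromosome 4 (28813131 to 28967499, + strand, GENCODE annotation of GRCm38). In NSC libraries its mean level ran from 0.115 TPM at P1 to 22.5 TPM at E15.5, with a median of 10.3 TPM. The BP values, from E12.5 to P0, were 36.0, 45.7, 23.8, 24.3 and 28.2 TPM. The NBN values were 69.6 TPM at E16.5, 43.2 at E18.5, 40.5 at P1 and 25.7 at P3. Every BP and NBN library was thus above every NSC library. In NBN P3, however, Epha7 was at 1 TPM or more in 6 of the 34 cells with markers of another type (mean 30.2 TPM). It was so in 0 of the 6 others (mean 0.155 TPM). NBN minus NSC was 2.99 ± 0.63 (log2 estimate ± SE, limma adjusted p = 0.024), and BP minus NSC was 1.92 with limma adjusted p = 0.139. The NSC E10.5 library, which was poor in neuron-profile cells, already had Epha7 at 13.9 TPM, in 33 of 88 cells.

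Sema5b lies on chromosome 16 (35541145 to 35664732, + strand). Its NSC libraries held 18.2 TPM at the lowest (E15.5), 36.7 at the median and 112 at the highest (E11.5). The BP values were 21.9, 3.19, 26.6, 32.9 and 24.4 TPM, and the NBN values 8.12, 9.74, 3.03 and 0.783 TPM. All NBN libraries were below all NSC libraries. BP E14.5 was within the NBN range, and the other BP libraries were within the NSC range. NBN minus NSC was -3.18 ± 0.71 (limma adjusted p = 0.030). In NBN P3, which had the least, the mixture of cell types moved with the value, and their part in the result was not tested; without that library 3 members were called, Sema5b, Epha7 and Plxna4 (4.5% of all genes called). Sema5b was at 1 TPM or more in 360 of 532 NSC, 238 of 335 BP and 86 of 208 NBN cells.

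The 2 calls depended on which libraries were included. Neither was kept when NSC E18.5, NSC P0, NSC P1 or NBN P1 was left out. In those fits 0.707%, 0.56%, 0.572% and 1.07% of all genes were called, against 1.74% with all 17 libraries. Only Sema5b was called without NBN E16.5 (1.59% of all genes) or without NBN E18.5 (0.974%). Over the 17 fits that left out 1 library, the Epha7 estimate stayed between 2.31 and 3.32, with a limma adjusted p of at most 0.0579. The Sema5b estimate stayed between -3.58 and -2.78, with a limma adjusted p of at most 0.0906. Over all 28 alternative settings the limma adjusted p reached 0.245 for Epha7, which lost its call in 7 of them. For Sema5b it reached 0.0906, and the call was lost in 6. With stage as a factor in place of a linear age term, 5 members were called higher (Epha7, Nrp1, Plxna3, Plxna4 and Robo2; 3.14% of all genes called) and Sema5b was not. Plxna4, a receptor subunit for secreted and class 6 semaphorins, had the largest positive estimate of the tested members, 3.28 ± 0.90, and missed the threshold at limma adjusted p = 0.064. Its level was 0.0521 TPM at the lowest, 7.58 at the median and 21.9 at the highest NSC library, and 34.4, 77.7, 50.3 and 15.7 TPM in NBN. The NBN P3 value was within the NSC range and the other 3 were above it.

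**Figure D2:**
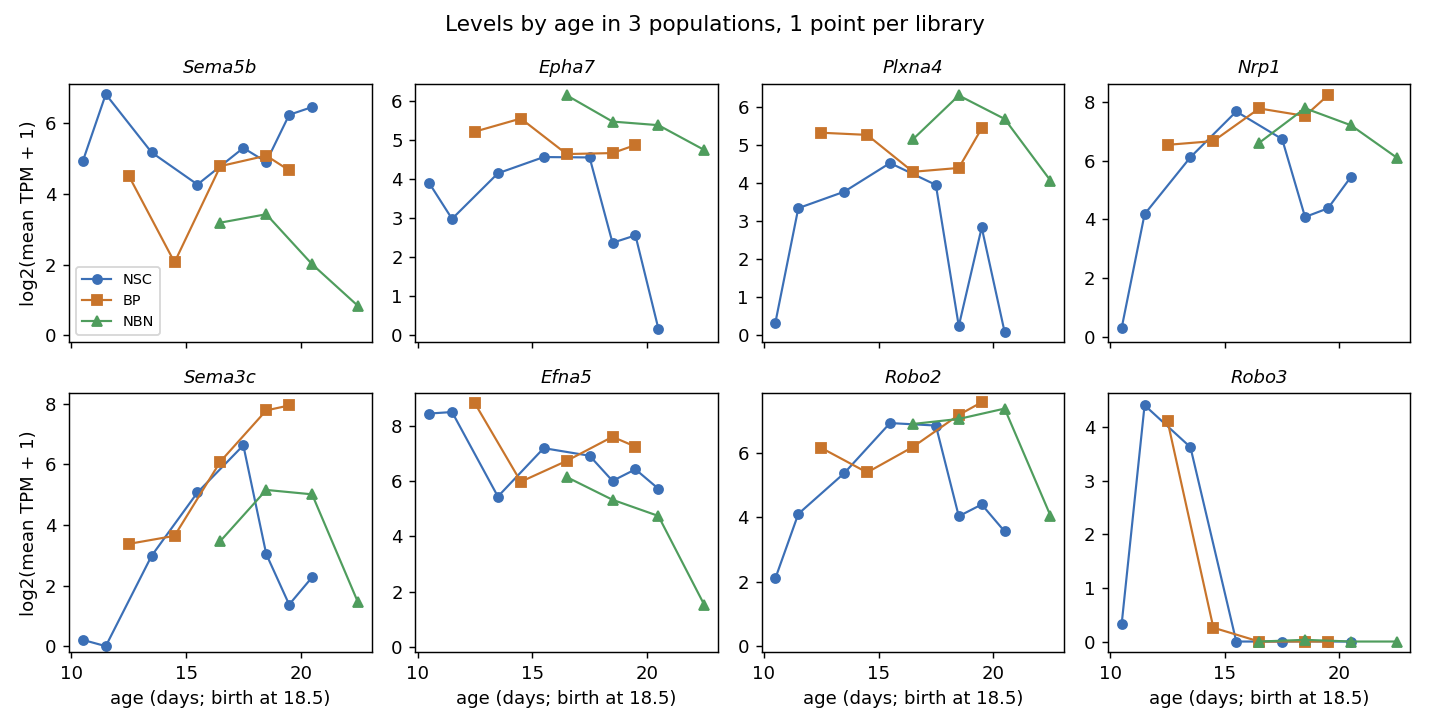
Levels of 8 guidance genes as log2(mean TPM + 1) against age in days, 1 point per library, with lines joining the libraries of NSC (circles), BP (squares) and NBN (triangles). Epha7 and Sema5b separate NSC from NBN at all ages sampled, Sema3c separates late BP from NBN, and Robo3 is near 0 after E13.5 in NSC and after E12.5 in BP. In NBN P3 only cells with markers of another type held Epha7 at 1 TPM or more.

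Basal progenitors against stem cells. None of the 51 tested members was called, with 0.511% of all genes called by limma; at an unadjusted p under 0.05, 14 were higher and 1 lower, where 6.71% of all genes were higher and 6.99% lower. The median estimate of the members was 0.86 on the log2 scale against 0.14 over all genes, and 42 of 51 were positive, against 58.1% of all genes. The comparison depended on which cells stood for NSC. When NSC libraries were built from the 284 cells with more radial glia than neuron transcripts, 16 of 50 tested members were called, all higher in BP, with 6.82% of all genes called. Those were Nrp1, Nrp2, Plxna2, Plxna3, Plxna4, Sema3c, Sema4c, Sema4g, Sema6d, Sema7a, Robo1, Robo2, Efna3, Efnb2, Epha7 and Ephb6. This choice of cells rests on 12 radial glia and 12 newborn neuron markers, none of them a guidance member, but it also lowers in NSC any gene that accompanies neuron markers from cell to cell. NSC E15.5 then rests on 8 cells and NSC E11.5 on 13; without them and NBN P3, 17 members were called (9.32% of all genes). With all cell profiles kept and NSC E15.5 and NBN P3 left out, 7 members were called (Efna3, Efnb2, Epha7, Nrp1, Plxna4, Sema3c and Sema4g; 4.19% of all genes), and with NSC E11.5 left out as well 3 were (Efnb2, Nrp1 and Plxna4; 3.37%).

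In the fit with radial glia profile NSC cells and all 17 libraries, the largest estimate was that of Nrp1. It was 5.01 ± 0.62 on the log2 scale (limma adjusted p = 0.000143). The radial glia profile cells held Nrp1 at 0.216 TPM in the lowest, 4.71 in the median and 16.9 TPM in the highest NSC library, all below the lowest BP library. Sema3c followed with 4.33 ± 0.90, Plxna4 with 3.97 ± 0.62, Robo2 with 3.66 ± 0.82 and Plxna3 with 3.44 ± 0.82, with limma adjusted p from 0.00108 to 0.0187. Robo1, at 1.06, 1.64 and 4.61 TPM in the lowest, median and highest of these NSC libraries, differed by 3.01 ± 0.55. Efna3, an ephrin-A ligand, was listed at 0 in all 8 NSC libraries built this way, so no fold is given for it. Sema5b stayed the member with the lowest estimate and was not called; its radial glia profile NSC libraries held 25.6 to 87.9 TPM. Against the same NSC libraries, NBN were higher in Epha7, Nrp1, Plxna4, Robo1 and Sema7a and lower in Sema5b (-3.57), 6 of 50 members with 4.21% of all genes called.

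**Figure D3:**
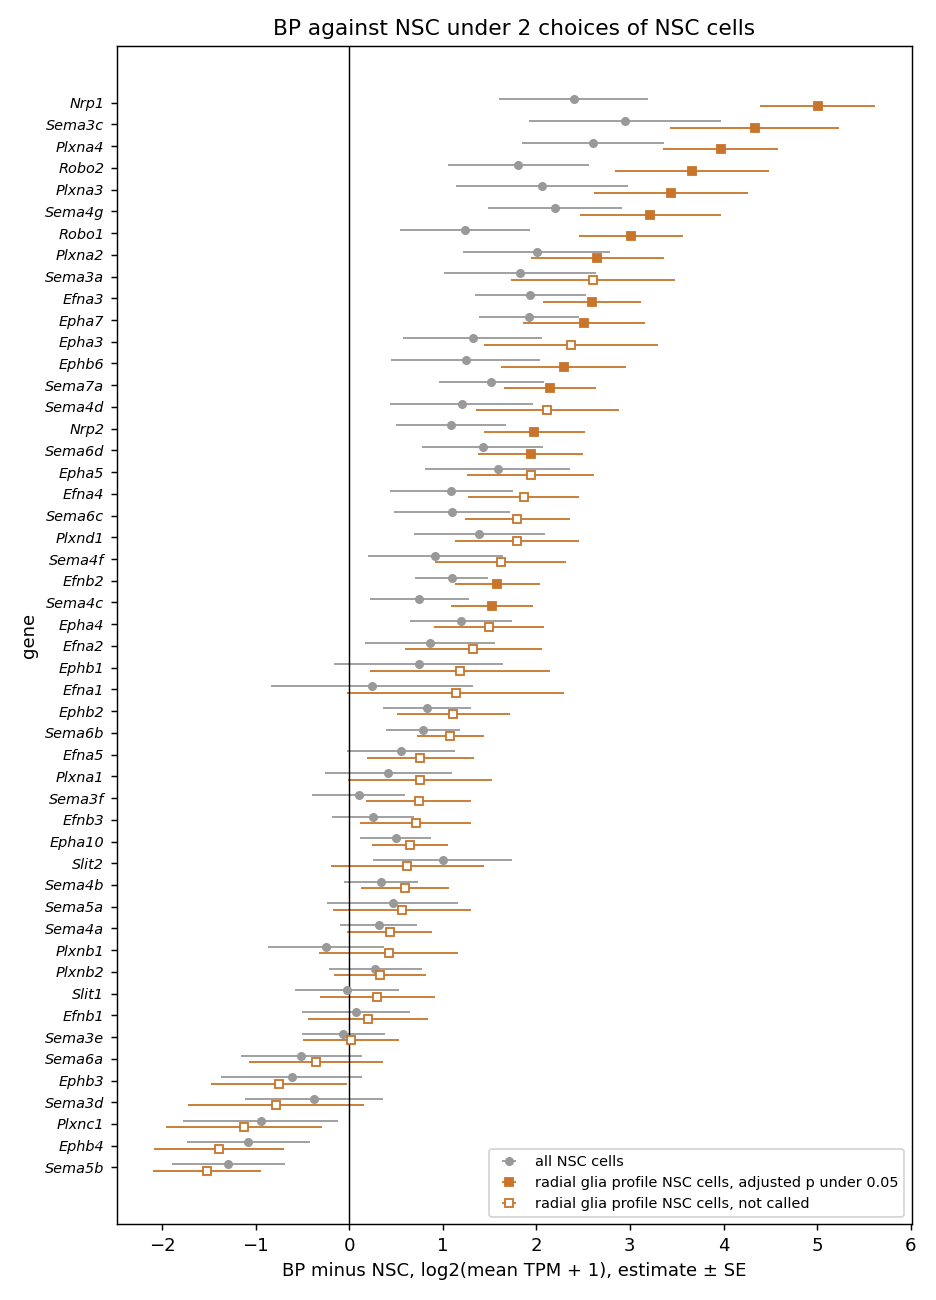
BP minus NSC on the log2(mean TPM + 1) scale for the members tested in both fits, estimate ± SE, with all NSC cells (grey circles) and with radial glia profile NSC cells only (squares, filled where the limma adjusted p is under 0.05). Nrp1 moves from 2.40 to 5.01, and Sema5b stays below 0 in both.

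Newborn neurons against basal progenitors. None of the 51 members was called, with 0.0284% of all genes called by limma; at an unadjusted p under 0.05 none was higher and 8 were lower, where 2.61% of all genes were higher and 6.63% lower. The median estimate was -0.35 on the log2 scale against -0.23 over all genes, and 16 of 51 were positive, against 37.2% of all genes. Both sets of libraries came from Tbr2::GFP animals and both were mostly neuron-profile cells by the markers. Sema6d (-2.18 ± 0.82) and Efna5 (-2.02) were among the lower estimates, with limma adjusted p = 0.43 and 0.41. Within NBN P3, 19 of 34 cells with markers of another type held Nrp1, and of the 6 others 1 did. The Nrp1 means were 66.0 and 79.5 TPM, the second resting on that 1 cell. Plxna4 was in 2 of 34 and 3 of 6, with means of 8.18 and 58.1 TPM.

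Semaphorins. Sema3c, a secreted ligand of neuropilin and plexin receptors, was the member with the steepest course in BP. Its level was 9.36 TPM at BP E12.5, 11.4 at E14.5, 67.0 at E16.5, 218 at E18.5 and 244 at P0. NSC libraries ran from 0 TPM at E11.5 through a median of 5.36 to 97.6 TPM at E17.5. The NBN values were 10.1, 34.6, 31.1 and 1.73 TPM, so at E16.5 and E18.5 the BP library held more than the NBN library of the same stage. None of these passed the test: BP minus NSC was 2.95 ± 1.02 (limma adjusted p = 0.221), NBN minus BP was -2.89 ± 1.29 (limma adjusted p = 0.514), and the BP age slope was 0.74 ± 0.29 log2 units per day (limma adjusted p = 1.00). On the mean over cells of log2(TPM + 1) the BP slope of Sema3c was the only member slope called in BP (0.121% of all genes). Cells with Sema3c at 1 TPM or more were 9 of 72 at BP E12.5 and 61 of 75 at BP P0.

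Sema3a, a secreted repellent of the same receptor system, was at 1.15 TPM at the lowest, 29.6 at the median and 73.7 TPM at the highest NSC library. BP libraries held 48.9, 19.9, 47.4, 105.3 and 173 TPM, and NBN libraries 102, 93.2, 75.1 and 22.3 TPM. The 2 earliest NSC libraries had the least, and BP and NBN values overlapped. Sema6d, a transmembrane semaphorin, had 1.26, 26.3 and 111 TPM as lowest, median and highest NSC level, 34.7 to 71.9 TPM in BP and 9.68 to 44.5 TPM in NBN. Its NSC age slope was 0.37 ± 0.11 log2 units per day (limma adjusted p = 0.135), and it was called when the neuron-rich NSC E15.5 library was left out (1.55% of all genes called). The remaining 16 semaphorins had means between 0.0862 TPM (Sema3b) and 24.7 TPM (Sema6a) over the libraries.

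Neuropilins and plexins. Nrp1, the receptor that binds Sema3a, was low in the earliest stem cells and high in midgestation. It was at 0.227 TPM at NSC E10.5, 17.1 at E11.5, 68.7 at E13.5, 205 at E15.5 and 106 at E17.5, and then at 16.0, 19.8 and 42.7 TPM at E18.5, P0 and P1. The BP values were 92.4, 101, 220, 184 and 301 TPM, and the NBN values 97.0, 221, 148 and 68.0 TPM. The 3 NSC libraries with the most Nrp1 held 90.7% (E15.5), 69.7% (E17.5) and 51.5% (E13.5) neuron-profile cells. NSC E11.5, with 77.6%, had Nrp1 at 17.1 TPM and NSC P1, with 12.8%, at 42.7 TPM. In radial glia profile cells alone Nrp1 was at 10.6, 16.9 and 10.9 TPM at E15.5, E17.5 and E13.5. It was there at 1.35 TPM at E11.5 and 6.22 TPM at P1. The part of neuron-profile cells in these levels was not tested. BP minus NSC was 2.40 ± 0.80 (limma adjusted p = 0.207). Nrp2, its paralog for Sema3f, was lower and overlapped between populations, at 2.22 to 30.3 TPM in NSC, 8.63 to 42.0 in BP and 7.01 to 25.7 in NBN.

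Plxna2 and Plxna3 encode signalling partners of the neuropilins. Plxna2 was at 0.735 TPM in NSC E10.5 and reached 182 TPM at NSC E15.5, with a median of 52.6 TPM. In BP it was 128, 207, 114.9, 188 and 171 TPM, and in NBN 106, 136, 134 and 35.8 TPM, above the NSC median in all but NBN P3. Plxna3 was even across BP (50.4, 56.0, 48.3, 47.9 and 43.0 TPM) and across the first 3 NBN stages (50.3, 55.9 and 52.6 TPM), and it was at 0.316 TPM in NBN P3. Its NSC libraries spanned 1.42 to 70.0 TPM with a median of 13.9. Plxnb2, a receptor for class 4 semaphorins, overlapped in all populations, with 14.54 to 66.7 TPM in NSC, 17.4 to 112 in BP and 5.67 to 35.4 in NBN.

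Ephrins. Efna5, a membrane-anchored ligand that shapes topographic maps, was most abundant early. Its level was 351 TPM at NSC E10.5, 365 at NSC E11.5 and 453 at BP E12.5. Later NSC libraries held 42.7 to 147 TPM and later BP libraries 62.4 to 195 TPM, and the NBN values were 70.3, 39.3, 25.8 and 1.88 TPM. The early libraries also had the most cells with the transcript: 73.9% at NSC E10.5, 50.0% at NSC E11.5 and 55.6% at BP E12.5, against 9.09 to 26.7% elsewhere. The age slope was -0.22 ± 0.09 log2 units per day in NSC (limma adjusted p = 0.295) and -0.72 ± 0.20 in NBN (limma adjusted p = 0.083), and the second was called when NBN P1 was left out (6.71% of all genes called) or when cells with markers of another type were. Without NBN P3 the NBN slope was -0.35 ± 0.30 (limma adjusted p = 0.681).

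Efnb2, a transmembrane ligand that can also signal backward into its own cell, was among the steadiest members. NSC libraries held 42.1 TPM at the lowest, 80.1 at the median and 241 at the highest. BP held 210, 243, 107, 229 and 139 TPM, and NBN 206, 128, 152 and 57.3 TPM. All 17 libraries were above 40.0 TPM and the populations overlapped. Efnb3 ran from 7.73 to 62.3 TPM over all libraries and Efnb1 from 0.931 to 39.1 TPM. Efna1 showed how few cells can carry a library mean: it was at 59.8 TPM in NSC P1 and 56.8 TPM in NBN P1, while at most 7.50% of the cells of any library held it at 1 TPM or more. Efna4 ran from 0.822 to 34.7 TPM in NSC, 8.48 to 16.1 in BP and 6.79 to 17.0 in NBN.

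Eph receptors. Epha3, Epha4 and Epha5, which bind A-type ephrins (Epha4 also binds B-type), were the most abundant receptors of the family, each at a mean of 70.4 to 88.6 TPM. Epha5 was at 1.85 TPM in NSC E10.5, 8.80 in NSC E11.5 and 22.9 to 140 TPM in later NSC libraries. Its BP values were 60.0, 128, 52.8, 97.9 and 106 TPM, and its NBN values 153, 106, 109 and 13.1 TPM. The earliest stem cells and NBN P3 thus had the least, and all other libraries overlapped. Epha3 was at 17.47 to 136 TPM in NSC, at 101 to 182 TPM in BP and at 64.1, 131, 43.2 and 0.585 TPM in NBN. Epha4 spanned 12.0 to 201 TPM in NSC, 73.8 to 227 in BP and 27.0 to 61.4 in NBN, where every BP library was above every NBN library; NBN minus BP was -1.82 (limma adjusted p = 0.43).

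The EphB receptors were less abundant. Ephb1 had 0, 9.53 and 30.9 TPM as lowest, median and highest NSC level, 6.36 to 26.4 TPM in BP and 0.249 to 26.5 TPM in NBN. Ephb2 was at 3.24 to 21.3 TPM in NSC, 14.2 to 26.9 in BP and 2.71 to 15.8 in NBN. Ephb6, which lacks an active kinase, was at 0.0311 to 21.0 TPM in NSC, 3.93 to 11.8 in BP and 0 to 9.90 in NBN. None separated the populations by library range.

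Slits and Robos. Robo2, a main receptor of Slits, was at 3.29 TPM at the lowest, 18.2 at the median and 121 at the highest NSC library. BP libraries held 70.6, 41.1, 72.1, 144.8 and 191 TPM, and NBN libraries 119, 133, 166 and 15.6 TPM. NSC E15.5 and E17.5 lay among the BP values, all other NSC libraries below them. Robo1 was at 0.981 to 30.3 TPM in NSC, 6.28 to 43.5 in BP and 11.3 to 58.5 in NBN. Of the ligands, Slit2 reached 29.1 TPM in NBN P1, Slit1 at most 7.25 TPM and Slit3 at most 3.31 TPM.

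Robo3, the divergent Robo known from axons that cross the midline, was an early transcript. It was at 20.3 TPM in NSC E11.5, 11.4 in NSC E13.5 and 16.4 in BP E12.5, and at 0.254 TPM or less in the other 14 libraries. The cells that held it at 1 TPM or more were 8 of 58, 11 of 66 and 20 of 72 in those 3 libraries. It was listed at 0 in 10 of those 14 libraries. In NSC E15.5, for example, 0 of 86 cells had it at 1 TPM or more, with an exact Clopper-Pearson upper bound of 4.20% for counting error only. It did not enter the test, which needed a mean of 1 TPM in 4 libraries. In radial glia profile cells alone Robo3 was at 0 TPM at NSC E11.5, which then rests on 13 cells. It was there at 18 TPM at NSC E13.5. The part of neuron-profile cells in these levels was not tested. Robo4, an endothelial Robo, was at 3.02 TPM in NBN P3 and at or near 0 elsewhere; 5 of the 40 cells there carried endothelial markers.

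Age. No member slope was called by limma in NSC, with 1.44% of all genes called. At an unadjusted p under 0.05, 2 members were higher and 4 lower there (8.03% and 5.05% of all genes), and 31 slopes were positive (52.7% of all genes). In BP none was called, with 0% of all genes called by limma; 1 was higher and 2 lower at an unadjusted p under 0.05 (1.99% and 1.6%), and 27 were positive (55.9%). In NBN none was called, with 0.575% of all genes called by limma; 0 were higher and 12 lower at an unadjusted p under 0.05 (4.44% and 15.7%). The difference between the BP and NSC slopes was called for none, with 0.0071% of all genes called by limma; 0 were higher and 1 lower at an unadjusted p under 0.05 (1.63% and 2.26%), and 24 were positive (51.9%). In NBN 45 of 51 members had a negative slope and 32.2% of all genes a positive one, with a median of -0.26 log2 units per day against -0.12 over all genes; without NBN P3, 36 of 51 were negative with a median of -0.15, beside a median of -0.12 over all genes, and 15 of 51 were positive, where 33.1% of all genes were. Where cells with markers of another type were left out, 11 member slopes in NBN were called lower (19.4% of all genes called), but NBN P3 then rested on 6 cells. On the mean over cells of log2(TPM + 1), 13 were called, 12 of them lower (16.7% of all genes called).

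Cell profiles within the NSC libraries. A library mean cannot tell fewer expressing cells from less RNA per cell, so cells were also described one by one. Across the 8 NSC libraries 248 cells had the neuron profile and 284 the radial glia profile, and 62 of the 532 lay within 2-fold of the line. The medians over all libraries were 4957.5 and 4659 detected genes. Nrp1 was at 1 TPM or more in 58.9% of neuron-profile and 22.2% of radial-glia-profile cells, with means of 137 and 4.44 TPM. Its mean was higher in neuron-profile cells in 7 of the 7 libraries with at least 5 cells of each class. The same held in 7 of 7 libraries for Plxna2 (74.2% against 31.3% of cells) and for Nrp2 (means of 21.9 and 4.34 TPM). Robo1 and Robo2 had the higher mean in 6 of 7, with 28.4 against 2.33 TPM and 89.4 against 11.7 TPM. Plxna4 was in 33.9% against 6.34% of cells, with the higher neuron mean in 5 of 7 libraries. These shares and means pool all NSC stages, which the 2 classes held unevenly. NSC E10.5 gave 84 of the 284 radial glia profile cells, and NSC E15.5 gave 78 of the 248 neuron-profile cells.

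Other members had no such lean across libraries, or the opposite one. Sema5b was in 66.5% of neuron-profile and 68.7% of radial-glia-profile cells, and its mean was higher in the neuron class in 1 of 7 libraries. Plxnc1, the receptor of Sema7a, was in 10.1% against 22.9% of cells, Ephb4 in 3.63% against 12.3%, each with the higher neuron mean in 1 of 7 libraries. Slit2 had the lower neuron mean in all 7. Epha7, called between NBN and NSC, was in 23.8% of neuron-profile and 21.1% of radial-glia-profile cells. Its pooled means were 17.3 and 9.00 TPM, and by library its mean was higher in the neuron class in 3 of 7. These are descriptions of cells sharing libraries, with no test.

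**Figure D4:**
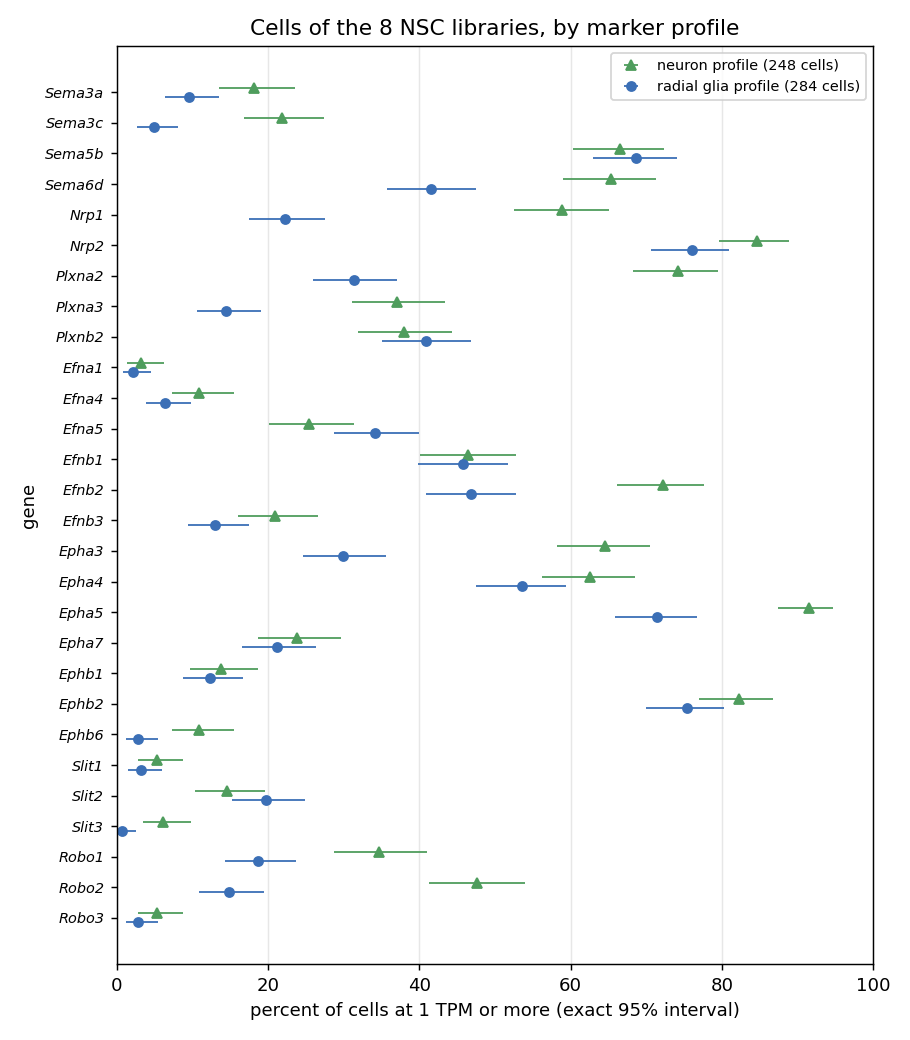
Percent of NSC cells with each named gene at 1 TPM or more, for neuron-profile cells (triangles) and radial-glia-profile cells (circles), with exact 95% binomial intervals that cover counting error only. Nrp1, Plxna2, Robo2 and Epha3 lie far apart, while Sema5b, Epha7 and Efnb1 nearly coincide. The shares pool all NSC stages, and the mix of stages differs between the classes.

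Receptor partners in the same cell. A-type plexins are signalling partners of Nrp1, and Nrp1 together with any of them was at 1 TPM or more in 176 of 532 NSC, 220 of 335 BP and 120 of 208 NBN cells. By library, the share with both was 2.27% at NSC E10.5, 82.6% at NSC E15.5 and 12.1% at NSC E18.5. It was 48.9 to 84.0% in BP, 79.4% at NBN E16.5 and 5 of 40 cells at NBN P3. Among BP cells with Nrp1, 95.2% had an A-type plexin, close to the 92.5% among all BP cells. Of BP cells with Sema3c, 144 of 164 had Nrp1 (87.8%, against 69.0% of all BP cells), and of those with Sema3a, 76 of 101 did (75.2%). These totals pool the BP stages. By library, the Sema3c cells with Nrp1 were 77.8% against 54.2% of all cells at E12.5 and 75.0% against 48.9% at E14.5. They were 97.5% against 79.0% at E16.5, 76.1% against 69.35% at E18.5 and 93.4% against 84.0% at P0. Only 9 cells at E12.5 and 8 at E14.5 held Sema3c. Of cells with a Slit, 59 of 123 in NSC (48.0%, against 44.7% of all NSC cells), 55 of 82 in BP (67.1% against 73.1%) and 30 of 39 in NBN (76.9% against 70.7%) held Robo1 or Robo2. The share with a receptor among Efna5 cells (91.9% in NSC) was close to that among all NSC cells (94.0%). Detection of both genes rises with the depth of a cell, and the population totals pool stages, so these shares are descriptions.

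**Figure D5:**
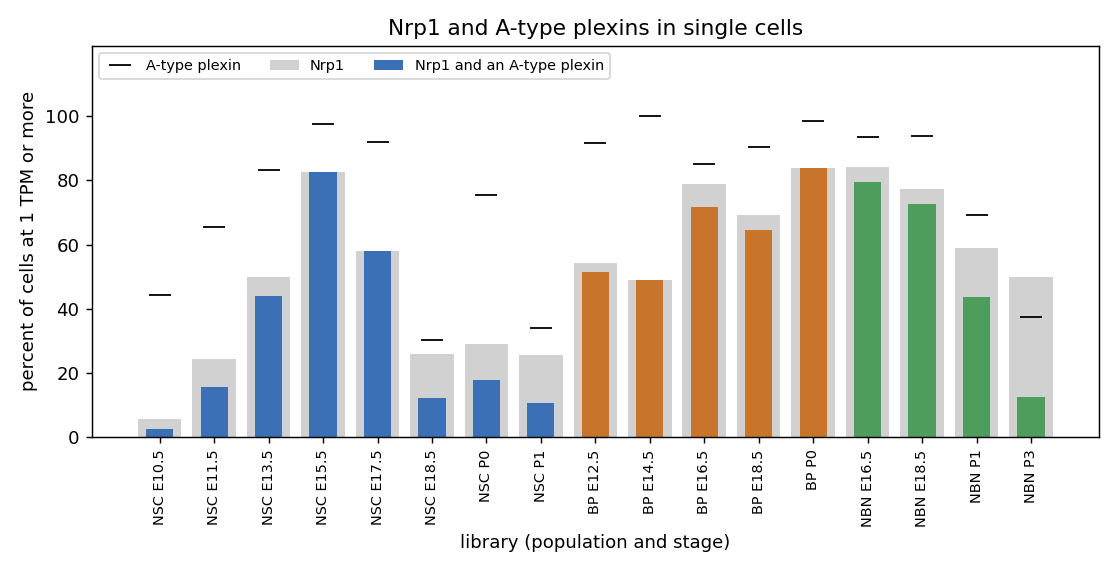
Percent of cells per library with Nrp1 (grey bars), with Nrp1 and any of 4 A-type plexins (coloured bars; NSC blue, BP orange, NBN green) and with an A-type plexin (black ticks), each at 1 TPM or more. NSC E15.5 reaches 82.6% for both genes, and NSC E10.5 stays at 2.27%.

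The number of members detected in a cell had a median of 13 at NSC E10.5, 19 at NSC E15.5 and 10 at NSC P1. It was 19 to 21 in the BP libraries, 21 at NBN E16.5, 13 at NBN P1 and 9 at NBN P3. The median number of genes detected was 5688 at NSC E10.5, 5196 at NSC E15.5 and 3371 at NSC P1, so the libraries with the most genes did not always hold the most members. Per 1000 detected genes the medians ran from 2.39 at NSC E10.5 to 4.14 at BP P0. All 5 BP libraries held between 3.59 and 4.14 members per 1000 genes, and the NSC libraries between 2.39 and 3.73. NBN E16.5, E18.5 and P1 were within the BP range at 3.62, 3.855 and 3.9, and NBN P3 was at 2.89.

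Other guidance genes. The netrin and RGM system had 13 of 15 listed genes tested, co-receptors and FLRT proteins 10 of 10, and cytoplasmic effectors 27 of 28. In the population comparisons none was called. For BP minus NSC, 9 of 13 netrin system genes, 9 of 10 co-receptors and 21 of 27 effectors were positive, with medians of 1.02, 0.93 and 0.69 on the log2 scale beside 0.14 over all genes. Fyn, a kinase downstream of several guidance receptors, rose with age in NSC by 0.27 ± 0.06 log2 units per day (limma adjusted p = 0.031), with 17.6 TPM in the E10.5 library and 252 TPM in the P1 library, but without NSC E10.5 the limma adjusted p was 0.267 and without NSC P1 it was 0.123. The Fyn call was lost in 10 of 27 alternative settings, among them the mean over cells of log2(TPM + 1), with a slope of 0.065 (limma adjusted p = 0.717), and the fit without cells of another type (limma adjusted p = 0.303). Cdk5, a kinase of semaphorin signalling, had a slope of -0.999 ± 0.16 in NBN (limma adjusted p = 0.020), with 83.9, 36.7, 8.49 and 0.327 TPM from E16.5 to P3; without NBN P3 the slope was -0.79 and the limma adjusted p 0.192. With radial glia profile NSC cells, 2 genes of the netrin system (Dcc and Unc5d), 3 co-receptors (Cntn2, Flrt1 and L1cam) and 7 effectors were called higher in BP, in the fit in which 6.82% of all genes were called. Those 7 were Cdk5r1, Crmp1, Dpysl2, Dpysl3, Dpysl5, Srgap1 and Vav3. Dpysl4, a relative of Dpysl2 on the same list, was not called, and its BP minus NSC estimate with all NSC cells was -0.28.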

How the data were processed

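Single cells were captured on Fluidigm C1 chips, amplified with SMARTer chemistry and sequenced as single 75-base reads, per the labels' protocols. Per the submitters' processing notes, kallisto 0.43.0 was used, with builds GRCm38.p2 and mm10 named. The deposited values are TPM per gene and cell, made by the authors, and each cell sums to between 999993 and 1000013. In 7 near-empty cells the deposited column holds whole numbers only and was treated as a score; these cells fell under the gene minimum. Cells with at least 500 genes at 1 TPM were kept (1075 of 1094). No doublet caller was run. No column was a repeat of another (0 pairs).

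Library means of TPM were analysed as log2(mean + 1), on which changes of weakly expressed genes look smaller. Those reaching a mean of 1 TPM in at least 4 of 17 libraries entered a limma model (version 3.58.1, R 4.3.3; trended, 2-sided, Benjamini-Hochberg over 14093 genes). Population contrasts had 1 common age slope, and age slopes were fitted per population, with postnatal ages as 18.5 days plus the labelled age. The fit was also run on simulated library values with known changes and independent normal noise. Those values held no libraries of mixed cell types, so the run does not show how the fit behaves on such libraries. Cells were classed by whether summed newborn neuron or radial glia markers were higher, and a cell was counted under another type with 3 markers of it at 10 TPM. Cell shares carry exact Clopper-Pearson 95% intervals for counting error only. Tables were handled in Python 3.11.15 with NumPy 2.4.6, pandas 2.3.3 and SciPy 1.17.1.

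Library values are given for up to 3 members per role group by mean level, together with members called in any comparison; Plxna4, Sema4g, Plxnc1, Ephb4 and Robo4 were added after their values were seen. The members, lists and tests were chosen with earlier results of these data known. Promoters came from a RefSeq table of GRCm38.p6, where 53 of 60 members matched, and gene positions from a GENCODE annotation of GRCm38, where 59 did.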

Additional observations from a re-analysis of the deposited data

Results flagged for a closer look

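Among 84 groups of library values (28 members in 3 populations), 8 held a library far from the others of its population. For normally distributed values chance flags about 1 in 20 such groups; these are TPM, and in some groups most values are at or near 0. In NBN P3, where 34 of 40 cells carried markers of another type, Epha5 (13.14 TPM), Plxna3 (0.3162 TPM) and Robo2 (15.58 TPM) were far below the other 3 NBN libraries. The part of those cells in the 3 values was not tested. Robo3 in BP E12.5 (16.41 TPM) was far above the later BP libraries, and in NBN E18.5 it was at 0.0222 TPM while the other NBN libraries were listed at 0; the second value rests on 1 of 66 cells. Sema5b in BP E14.5 (3.188 TPM) was far below the other BP libraries. Slit2 in NBN P1 (29.09 TPM) and Slit3 in NBN E18.5 (2.014 TPM) were far above the other NBN libraries.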

How the results depend on the processing

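No paired analysis was possible because the replicate numbers in the labels count cells within a library and name no animal. Of 913 alternative values for 33 gene results, 837 kept their direction and side of the threshold, 61 newly passed it, 13 no longer did and 2 reversed: without NSC E10.5 the NSC age slopes of Nrp1 and Plxna2 were -0.0404 and -0.0068, and over left-out libraries they reached 0.3317 and 0.3703. Counts of called members moved as follows, with the share of all genes called in brackets, and the cause was not tested. BP minus NSC (0) gave 16 with radial glia profile NSC cells (6.82%), 3 with stage as a factor (0.688%), 7 without NSC E15.5 and NBN P3 (4.19%), and, added after seeing the data, 3 without NSC E11.5 as well (3.37%) and 17 with both changes (9.32%). NBN minus NSC (2) gave 1 with no filter (0.604%), 1 without cells holding markers of another type (2.27%), 6 with radial glia profile NSC cells (4.21%), 5 with stage as a factor (3.14%), 3 without NSC E15.5 and NBN P3 (7.14%), 3 without NSC E11.5 as well (6.72%), 12 with both changes (9.46%), and 0 to 3 when each library was left out in turn (0.56% to 4.5%). The NSC slope (0) gave 3 on the mean of log2 values (15.3%), 1 (Sema6d) with radial glia profile cells (1.96%), without NSC E15.5 and NBN P3 (2.33%), or with both changes (1.84%), and 0 to 1 over left-out libraries (0.623% to 2.18%). The BP slope (0) gave 1 on the mean of log2 values (0.121%). The NBN slope (0) gave 1 with no filter (4.01%), 13 on the mean of log2 values (16.7%), 11 without cells of another type (19.4%) and 0 to 2 over left-out libraries (0.00718% to 6.71%). NBN minus BP and the slope difference stayed at 0 in every fit run. Of 84 cell shares, 70 fell outside the exact 95% interval of the share at 1 TPM when 10 TPM was required.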

Other observations

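Some members were detected in most cells at very low values. Nrp2 was at 1 TPM or more in 874 of 1075 cells and 21.2% of those cells held it at 10 TPM or more; in NSC E10.5 it was at 1 TPM in 100% of cells while its library mean was 2.22 TPM. Epha10 was in 865 cells at 1 TPM and 147 at 10 TPM, Ephb2 in 869 and 240, Sema3e in 664 and 88. Efnb2 was in 692 cells at 1 TPM and 614 at 10 TPM, and Plxna2 in 685 and 595. A share of cells at 1 TPM therefore ranks Nrp2 above Efnb2, and a share at 10 TPM ranks it below.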
